A study of Homo sapiens with 12 samples.

Results

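The HOX genes were followed in G401, an established human rhabdoid tumour cell line, in which a missing chromatin remodelling subunit was put back and a degrader of another subunit was applied. The 38 genes studied are protein-coding members of the HOXA, HOXB, HOXC and HOXD clusters, taken by symbol from the 57820 gene identifiers of the count tables. Of these, 10 belong to HOXA on chromosome 7, 10 to HOXB on chromosome 17, 9 to HOXC on chromosome 12 and 9 to HOXD on chromosome 2. All 12 libraries came from cells labelled SMARCB1(-/-), and each of the 4 groups had 3 replicates. GFP DMSO cells carried doxycycline-induced GFP as the control protein and received the solvent DMSO for 24 h. GFP dBRD9-A cells carried the same control protein and received dBRD9-A, a small molecule that directs the BRD9 protein to degradation, for 24 h. SMARCB1 DMSO cells carried doxycycline-induced SMARCB1 and the solvent. SMARCB1 dBRD9-A cells carried induced SMARCB1 and the degrader. SMARCB1 is a core subunit of the canonical BAF and PBAF remodelling complexes, and BRD9 belongs to the non-canonical BAF complex, which lacks SMARCB1. The labels give neither the time of doxycycline induction nor the dose of dBRD9-A, and they describe 1 tumour line with no parental or untransduced control. Nothing in them says whether the replicates of a group were separate cultures, so p-values measure the spread between these libraries, which may be technical.

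HOX genes encode homeodomain transcription factors that give cells of the embryo their position along the head-to-tail axis. Each cluster lists its genes in the order in which they act, from low paralog numbers (anterior) to high ones (posterior), and the clusters are a classic target of opposing Polycomb and Trithorax group proteins, the latter including SWI/SNF remodellers. HOX proteins bind DNA together with homeodomain partners of the PBX, MEIS and PKNOX families. In the developing kidney, HOX genes of the central and posterior paralog groups, such as the HOX11 group, take part in forming the nephric tissue, and rhabdoid tumours such as that behind G401 can arise in the kidney of young children.

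Libraries held 34.97 to 58.54 megacounts (units of 1e6 counts) assigned to genes. A level is given in counts per megacount (CPM) on TMM-scaled library sizes (trimmed mean of M values), and a floor of 3 counts corresponded to 0.0513 to 0.0858 CPM depending on the library. As a check of the labels, SMARCB1 was at 0, 0.0242 and 0 CPM in GFP DMSO cells and at 1806, 1911 and 1907 CPM in SMARCB1 DMSO cells. It was at 0.0467, 0.0263 and 0.0565 CPM in GFP dBRD9-A cells and at 1318, 1327 and 1276 CPM in SMARCB1 dBRD9-A cells. Reads of the induced construct and of the chromosomal gene are not told apart. BRD9 mRNA, which the degrader does not target, was at 39.6, 37.2 and 38.01 CPM in GFP DMSO and 41.3, 40.2 and 41.9 CPM in GFP dBRD9-A libraries, and the BRD9 protein was not measured. BRD9 mRNA averaged 46.9 CPM in SMARCB1 DMSO cells, higher than in GFP DMSO cells (log2 fold change 0.29, adjusted p = 1.64e-05), and 47.4 CPM in SMARCB1 dBRD9-A cells. Of the 7 other markers of rhabdoid and kidney origin, VIM, a marker of rhabdoid cells, was at 1329, 1287 and 1337 CPM in GFP DMSO and 2356, 2237 and 2334 CPM in SMARCB1 DMSO libraries (log2 fold change 0.81, SE 0.04, adjusted p = 1.22e-12). LIN28B, an RNA-binding protein of embryonic cells, had a log2 fold change of 0.57 in the same comparison (adjusted p = 5.15e-06). PAX2, a kidney development gene, had 15 to 28 counts in the 6 GFP libraries and 0 to 1 in the 6 SMARCB1 libraries. The kidney development genes SIX2 and WT1 had no count in any library, SALL1 at most 1 and PAX8 at most 5. Of 10 markers of leukocytes, endothelium, epithelium and liver with a matched row, PTPRC and CD3E had no count in any library. Their summed level was 163.9 to 176.1 CPM in GFP DMSO cells, 181.9 to 199.4 in GFP dBRD9-A cells, 58.91 to 62.77 in SMARCB1 DMSO cells and 64.65 to 68.35 in SMARCB1 dBRD9-A cells, almost all of it CD68, a lysosomal protein that is also found outside macrophages. Without CD68 the sums were 0.728 to 0.864 CPM in GFP DMSO, 0.374 to 0.606 in GFP dBRD9-A, 1.54 to 2.02 in SMARCB1 DMSO and 1.17 to 1.31 CPM in SMARCB1 dBRD9-A cells. The low markers moved in different directions. EPCAM, an epithelial marker, had 14 to 44 counts in GFP libraries and 0 to 3 in SMARCB1 libraries, whereas CDH1, another epithelial marker, had 0 to 4 and 14 to 37. VWF, an endothelial marker, had 0 to 5 and 22 to 50, and the endothelial CDH5 had 0 and 3 to 10. KRT5 and ALB had at most 1 count in any library. The part of these markers in the HOX results was not tested.

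G401 cells expressed long runs of the HOXA, HOXB and HOXC clusters and very little of HOXD. In GFP DMSO cells the 10 HOXA genes summed to 88.0 ± 1.14 CPM, the 10 HOXB genes to 137.8 ± 5.73 CPM, the 9 HOXC genes to 59.2 ± 0.355 CPM and the 9 HOXD genes to 1.42 ± 0.143 CPM (SD, n = 3). Of the 38 genes, 30 had enough counts to be tested, namely 10 of 10 in HOXA, 9 of 10 in HOXB, 8 of 9 in HOXC and 3 of 9 in HOXD. HOXB1, HOXD1, HOXD4, HOXD10, HOXD11 and HOXD12 were at or under 3 counts in each of the 12 libraries and are called silent here. HOXD11 had 0 counts in all of them, and a true level up to the floor cannot be told from none at this depth. HOXC12 and HOXD3 lay between, with more than 3 counts in some library but too few to be tested. HOXC12 had 10 counts in 1 GFP DMSO and in 1 GFP dBRD9-A library and 0 in the other 10 libraries.

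**Figure D1:**
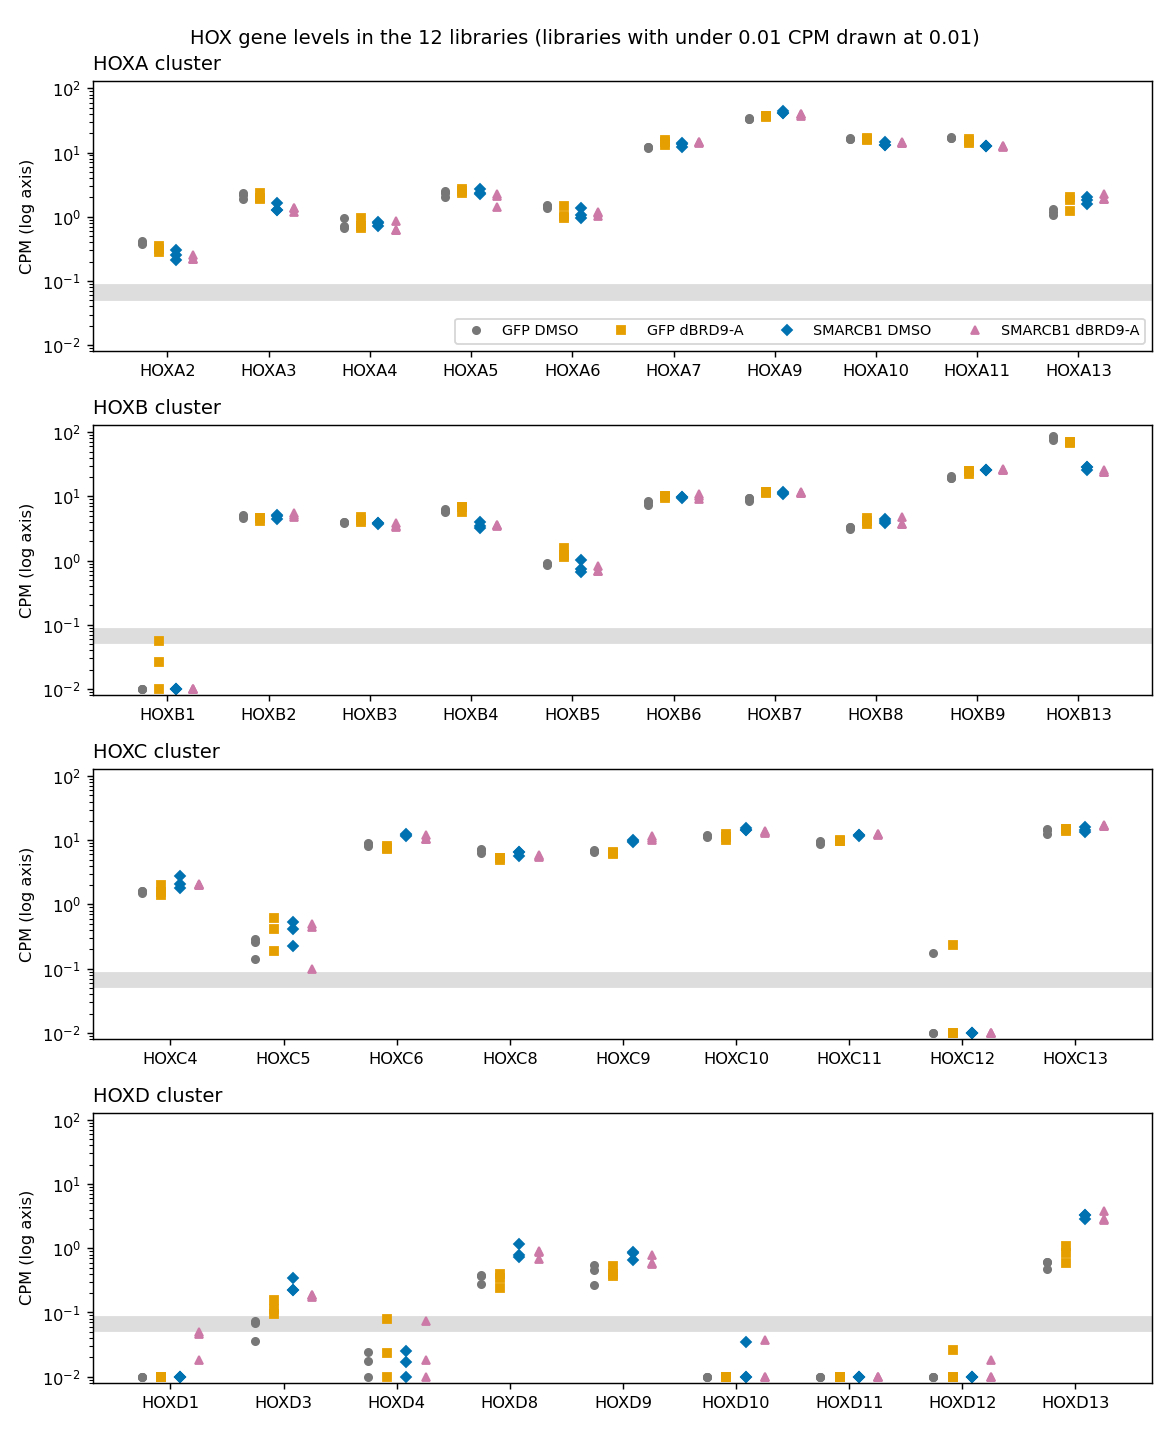
Level of each of the 38 HOX genes in the 12 libraries, in CPM on a log axis, by cluster and in paralog order. Each point is 1 library, the grey band is the range of the 3-count floor, and values under 0.01 CPM are drawn at 0.01. Most HOXD genes lie at or under the floor, while most genes of the other clusters lie above 1 CPM.

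Levels of different genes were compared per kilobase of exon, since long transcripts give more counts. On this scale, in GFP DMSO cells, HOXB13 led all 38 genes with 23.6 CPM per kb. HOXA9 followed with 11.2 CPM per kb, and HOXB9 and HOXA11 with 7.64 and 7.35. HOXC13 and HOXC10 headed their cluster with 5.799 and 5.01 CPM per kb. The posterior gene HOXD13 headed HOXD with only 0.255 CPM per kb. The top gene of each of the 4 clusters was thus a posterior one, of paralog group 9 or 13. The anterior gene HOXA2, which patterns the hindbrain, was the lowest of HOXA with 0.162 CPM per kb.

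In DMSO, induced SMARCB1 was associated with lower HOXB13, higher HOXD8, HOXD9 and HOXD13, and small rises across much of HOXC and the middle of HOXB. Of the 30 tested genes, 19 (63.3%) were past an adjusted p of 0.05, 14 higher and 5 lower, in edgeR's quasi-likelihood test with p-values adjusted over 15750 genes. Over all 15750 genes 65% were past it, 33.5% higher and 31.6% lower, so the share of HOX genes called was near the background. In cultures measured in bulk, fewer cells that express a gene and less RNA per cell cannot be told apart. The median log2 fold change of the 30 was 0.20, against -0.0047 for all genes, and the median of its absolute value was 0.38 against 0.28. By cluster, 5 of 10 tested HOXA genes were called (2 higher, 3 lower), 6 of 9 HOXB genes (4 higher, 2 lower), 5 of 8 HOXC genes (5 higher) and 3 of 3 HOXD genes (3 higher). By position, 1 of 4 anterior genes (paralog groups 1 to 3), 7 of 14 central genes (groups 4 to 8) and 11 of 12 posterior genes (groups 9 to 13) were called, 8 of the 11 higher and 3 lower. These groups are small, and no difference between positions was tested. An absolute log2 fold change of 1 was exceeded by 3 of the 19, HOXB13, HOXD8 and HOXD13. In GENCODE release 29, 24 of the 38 genes overlap another gene on their own strand and 24 overlap one on the opposite strand. How the authors' counting used strand is not given in the sources used here, so reads of such genes may be divided between partners.

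**Figure D2:**
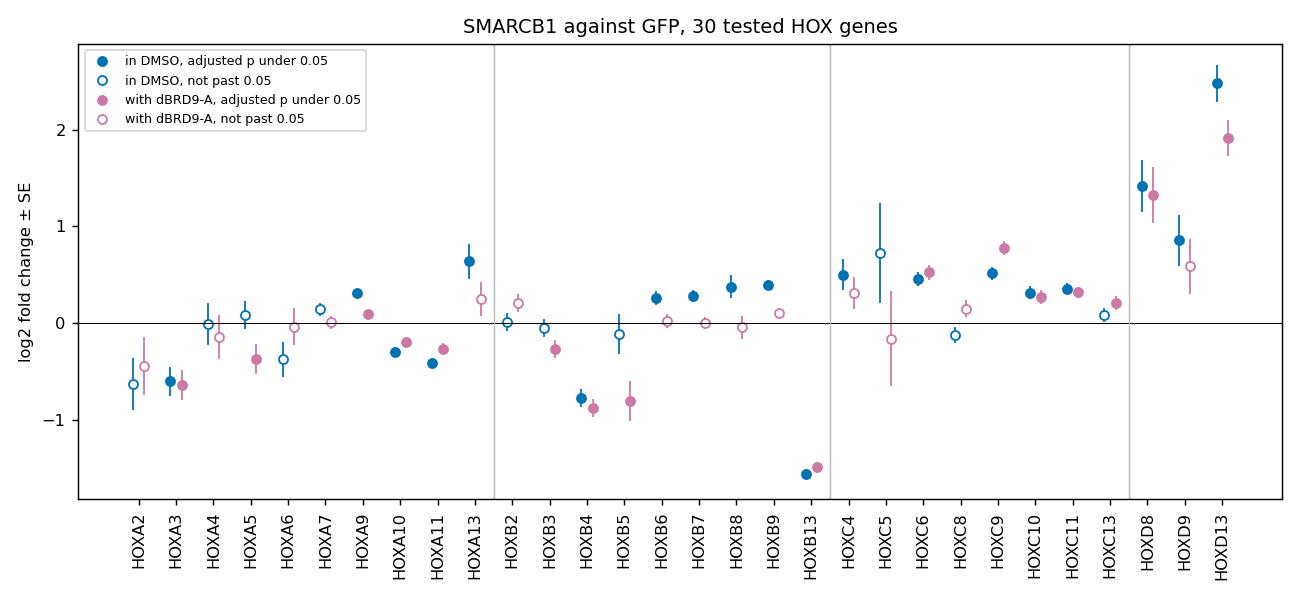
Log2 fold change of SMARCB1 against GFP cells for the 30 tested HOX genes, in DMSO and with dBRD9-A. Points are fitted values from 3 against 3 libraries, bars are 1 SE, filled points are past an adjusted p of 0.05, and vertical lines divide the clusters. HOXB13 lies at -1.56 and -1.49, and HOXD13 at 2.48 and 1.91.

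HOXB13 (ENSG00000159184.7), a posterior gene known for its role in the prostate and hindgut and the most abundant HOX transcript of the control cells, fell most. It was at 83.5, 75.99 and 86.4 CPM in the GFP DMSO libraries and at 29.1, 26.03 and 28.4 CPM in the SMARCB1 DMSO libraries. The groups were far apart, and the fall was 2.95-fold (log2 fold change -1.56, SE 0.05, adjusted p = 7.95e-15). HOXB13 overlaps no other gene in GENCODE 29. HOXB13 made up most of the HOXB total in GFP DMSO cells, and the cluster sum went from 137.8 ± 5.73 to 91.7 ± 1.295 CPM although 4 other HOXB genes rose (SD, n = 3).

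HOXB13 lies apart from the rest of its cluster, and in the RefSeq gene order its nearest coding neighbours are PRAC1 on the side of HOXB9 and TTLL6 on the outer side. PRAC1, which encodes a small nuclear protein of prostate and distal colon, was at 1.86, 1.72 and 1.61 CPM in GFP DMSO and 0.759, 0.781 and 0.653 CPM in SMARCB1 DMSO libraries. Its fall (log2 fold change -1.25, SE 0.18, adjusted p = 7.84e-06) was picked out after its values were seen, since it had fewer counts than the rule for named genes asks. TTLL6, a tubulin glutamylase, was at 8.52, 8.92 and 8.17 CPM in GFP DMSO and 2.75, 3.02 and 2.85 CPM in SMARCB1 DMSO libraries. It fell 2.96-fold, close in size to HOXB13 (log2 fold change -1.57, SE 0.09, adjusted p = 2.63e-11). HOXB9 and CALCOCO2, on either side of these 3 genes, were higher. HOXB9 rose from 19.1, 20.4 and 19.6 CPM to 26.1, 25.98 and 25.6 CPM (log2 fold change 0.39, SE 0.05, adjusted p = 1.47e-06), and CALCOCO2, an autophagy receptor beyond TTLL6, had a log2 fold change of 0.24 (adjusted p = 5.44e-06).

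**Figure D3:**
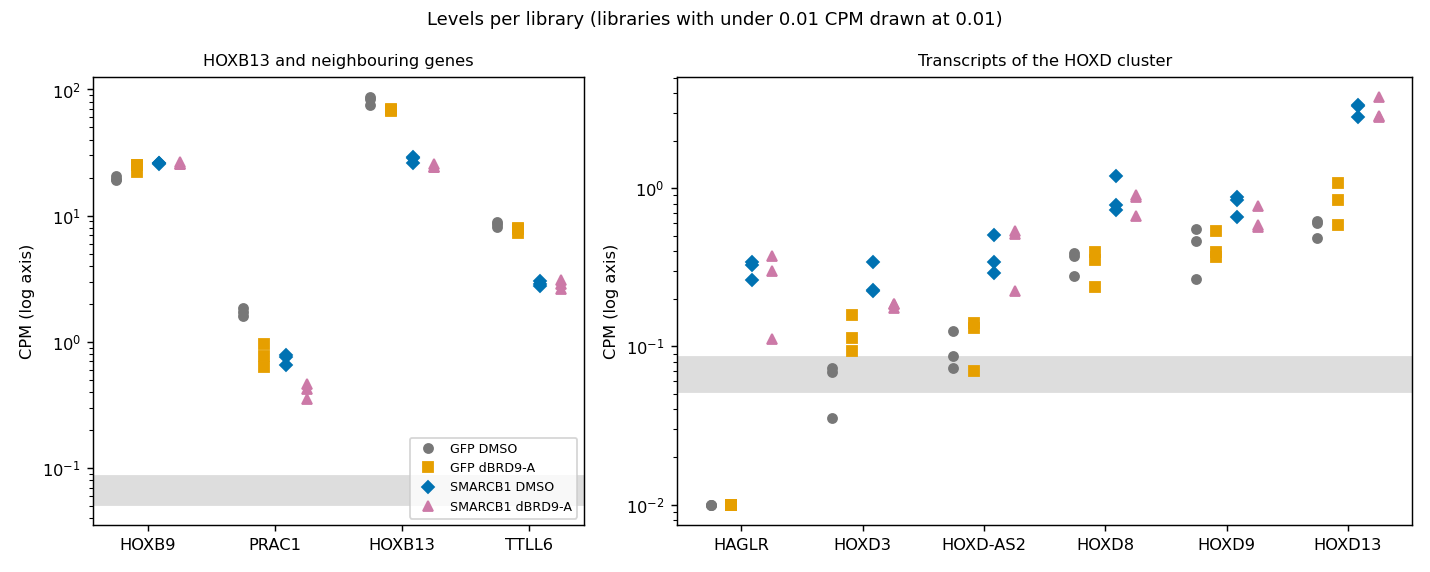
Level per library, in CPM on a log axis, of HOXB13 with neighbouring genes (left) and of 6 transcripts of the HOXD cluster (right). Each point is 1 of 3 libraries of a group, the grey band is the range of the 3-count floor, and values under 0.01 CPM are drawn at 0.01. PRAC1, HOXB13 and TTLL6 are lower in the SMARCB1 DMSO than in the GFP DMSO libraries while HOXB9 is higher, and HAGLR is at 0 counts in the 6 GFP libraries.

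HOXD genes were the least expressed and rose most. HOXD13 (ENSG00000128714.5), which shapes digits and the urogenital tract, was at 0.621, 0.606 and 0.484 CPM in GFP DMSO and 2.83, 3.35 and 3.32 CPM in SMARCB1 DMSO libraries. No library of a group overlapped the other, and the rise was 5.58-fold (log2 fold change 2.48, SE 0.19, adjusted p = 3.21e-09). HOXD8, a central gene, was at 0.373, 0.388 and 0.277 CPM in GFP DMSO and 0.785, 0.731 and 1.19 CPM in SMARCB1 DMSO libraries (log2 fold change 1.42, SE 0.27, adjusted p = 0.000155). HOXD9 averaged 0.428 ± 0.146 CPM in GFP DMSO and 0.793 ± 0.122 CPM in SMARCB1 DMSO cells (SD, n = 3), which is 0.86 on the log2 scale (SE 0.26, adjusted p = 0.00867). The sum of the 9 HOXD genes went from 1.42 ± 0.143 to 5.15 ± 0.512 CPM (SD, n = 3), which was still far below the other clusters. HOXD10, HOXD11 and HOXD12, which lie between HOXD9 and HOXD13 in the cluster, stayed at or under 3 counts with SMARCB1.

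At the anterior end of HOXD, HOXD3 had 2 to 4 counts per library in GFP DMSO and 9 to 13 in SMARCB1 DMSO cells, too few for the filter. With no filter on low counts its log2 fold change was 2.10 (adjusted p = 0.00115), from GFP counts around the floor. The same unfiltered fit also called HOXC12 lower in DMSO (-4.56, adjusted p = 0.018), which rests on 1 GFP DMSO library with 10 counts. With dBRD9-A HOXD3 had 4 to 6 counts in GFP and 7 to 10 in SMARCB1 libraries, and the unfiltered log2 fold change was 0.58 (adjusted p = 0.539). In DMSO, non-coding transcripts of the cluster were higher with SMARCB1 too, and both named here were chosen after their values were seen. HAGLR, which runs antisense to HOXD1 and HOXD3, had 0 counts in the 6 GFP libraries and 0.262, 0.328 and 0.344 CPM in SMARCB1 DMSO libraries. That was at least 5.23-fold higher than the floor of 3 counts per library. HOXD-AS2, antisense to HOXD3, HOXD8 and HOXD9, was at 0.124, 0.0727 and 0.0864 CPM in GFP DMSO and 0.3402, 0.504 and 0.292 CPM in SMARCB1 DMSO libraries, with 3 to 7 counts in each of the 6 GFP libraries. Both passed the filter on low counts only through SMARCB1 libraries, so their test is not given. Reads of these antisense pairs may be divided between the partners, whereas HOXD13 overlaps no other gene in GENCODE 29.

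The starts of 3 HOXD genes are shown, because in the same cells 2 of these genes rose and the one between them gave no count. Each sequence holds the 250 bases before the RefSeq start site on the plus strand of GRCh38.p14, 5′ to 3′, with CG dinucleotides in capitals. The windows are HOXD13 at chr2:176092471-176092720, HOXD11 at chr2:176107030-176107279 and HOXD8 at chr2:176129455-176129704.
HOXD13: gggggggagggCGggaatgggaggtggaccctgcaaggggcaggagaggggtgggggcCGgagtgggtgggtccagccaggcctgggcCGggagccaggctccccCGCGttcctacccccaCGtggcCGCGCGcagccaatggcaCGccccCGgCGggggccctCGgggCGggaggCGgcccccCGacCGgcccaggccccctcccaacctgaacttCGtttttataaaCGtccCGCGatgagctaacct
HOXD11: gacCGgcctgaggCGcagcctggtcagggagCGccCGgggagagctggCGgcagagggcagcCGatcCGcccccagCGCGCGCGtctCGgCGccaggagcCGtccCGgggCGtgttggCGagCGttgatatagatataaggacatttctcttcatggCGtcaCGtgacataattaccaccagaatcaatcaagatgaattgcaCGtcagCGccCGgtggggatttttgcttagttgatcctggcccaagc
HOXD8: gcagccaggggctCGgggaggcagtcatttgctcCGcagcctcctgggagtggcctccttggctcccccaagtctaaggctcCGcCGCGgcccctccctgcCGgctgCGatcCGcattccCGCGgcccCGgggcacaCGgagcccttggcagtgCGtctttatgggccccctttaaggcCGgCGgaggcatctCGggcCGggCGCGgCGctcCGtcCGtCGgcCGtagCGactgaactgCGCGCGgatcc
All 3 windows were rich in CG, with 21 for HOXD13, 23 for the silent HOXD11 and 28 for HOXD8, against a median of 11 over 34943 distinct RefSeq windows of this length. At least as many CG as in the HOXD13 window were held by 30.2% of windows, and at least as many as in the HOXD8 window by 15.8%. A TATAAA, the classic TATA box letters, began 27 bases before the HOXD13 start. Searched on both strands, TATAAA was in 10.8% of all windows and in 5 of the 26 distinct windows of the 20 HOX genes that had one, HOXC4 and HOXC5 sharing a window. CCAAT, on both strands, was in 32% of all windows and in 17 of the 26. TGANTCA, the palindromic AP-1 letters, was in 6.59% of all windows and in 0 of the 26. These matches describe letters in the windows only.

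All 5 HOXC genes called were higher. HOXC9, which helps set the thoracic level of the trunk, was at 6.58, 7.003 and 6.89 CPM in GFP DMSO and 10.1, 9.75 and 9.51 CPM in SMARCB1 DMSO libraries (log2 fold change 0.52, SE 0.07, adjusted p = 2.32e-06). HOXC6, a central gene of the same stretch, was at 8.64, 8.26 and 9.21 CPM in GFP DMSO and 12.4, 11.9 and 11.6 CPM in SMARCB1 DMSO libraries (log2 fold change 0.45, SE 0.07, adjusted p = 2.56e-05). In neither gene did the groups overlap. HOXC6 overlaps HOXC4, HOXC8 and HOXC9 on the same strand in the annotation, so reads of these genes may be divided between them. The rises of HOXC4, HOXC6 and HOXC9 are therefore not separate readings. HOXC10 and HOXC11, farther toward the posterior end, had smaller fitted changes. HOXC10, linked to hindlimb identity, was at 11.8, 11.1 and 12.1 CPM in GFP DMSO and 15.3, 14.2 and 14.3 CPM in SMARCB1 DMSO libraries (log2 fold change 0.32, SE 0.07, adjusted p = 0.000431). HOXC11 was at 9.46, 8.75 and 9.68 CPM in GFP DMSO and 11.8, 12.02 and 11.99 CPM in SMARCB1 DMSO libraries (log2 fold change 0.35, SE 0.06, adjusted p = 2.17e-05). HOXC4 was at 1.597, 1.65 and 1.52 CPM in GFP DMSO and 2.07, 1.81 and 2.75 CPM in SMARCB1 DMSO libraries (log2 fold change 0.50, SE 0.16, adjusted p = 0.0108). The HOXC4 rise rested on SMARCB1 DMSO replicate 3, the highest library, without which its adjusted p was 0.14. HOXC13, a regulator of hair keratins, was at 14.4, 15.2 and 12.6 CPM in GFP DMSO and 13.6, 14.3 and 16.2 CPM in SMARCB1 DMSO libraries, which overlapped (adjusted p = 0.355). HOXC8 and the low HOXC5 also overlapped between the groups, with adjusted p = 0.219 and 0.233.

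In HOXA, neighbouring posterior genes moved in opposite directions. HOXA9, a gene known for its role in blood stem cells and leukaemia, was at 34.7, 33.7 and 33.6 CPM in GFP DMSO and 43.7, 41.4 and 41.4 CPM in SMARCB1 DMSO libraries (log2 fold change 0.31, SE 0.04, adjusted p = 1.32e-06). HOXA10 was at 16.5, 17.1 and 16.5 CPM in GFP DMSO and 14.5, 12.9 and 13.3 CPM in SMARCB1 DMSO libraries (log2 fold change -0.30, SE 0.05, adjusted p = 6.23e-05). HOXA9 and HOXA10 overlap on the same strand, so their reads may be divided between them. With libraries scaled to spike-in RNAs, which put the median of all genes at 0.17, the HOXA10 fall was -0.13 (adjusted p = 0.183) and no longer past the threshold. HOXA11, which is needed for kidney and limb development, was at 16.7, 17.5 and 16.6 CPM in GFP DMSO and 12.7, 12.6 and 12.7 CPM in SMARCB1 DMSO libraries (log2 fold change -0.42, SE 0.05, adjusted p = 1.72e-06). Its antisense partner HOXA11-AS fell as well, from 2.52, 2.67 and 2.28 CPM to 1.39, 1.01 and 1.03 CPM (log2 fold change -1.13, SE 0.15, adjusted p = 2.33e-06). HOXA13, the gene at the posterior end, rose from 1.05, 1.31 and 1.18 CPM to 1.81, 1.59 and 2.03 CPM (log2 fold change 0.64, SE 0.18, adjusted p = 0.00468). At the anterior end, HOXA3 fell from 1.92, 2.21 and 2.31 CPM to 1.28, 1.26 and 1.63 CPM (log2 fold change -0.60, SE 0.15, adjusted p = 0.00164). The log2 fold changes of the other HOXA genes ran from -0.63 for HOXA2 to 0.14 for HOXA7, and none of the 5 passed the test.

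Within HOXB, the 4 genes from HOXB6 to HOXB9 rose by like amounts. HOXB6 was at 8.47, 7.34 and 8.14 CPM in GFP DMSO and 9.66, 9.62 and 9.53 CPM in SMARCB1 DMSO libraries (log2 fold change 0.26, adjusted p = 0.00439). HOXB7 was at 9.44, 8.63 and 9.54 CPM in GFP DMSO and 10.7, 11.6 and 11.2 CPM in SMARCB1 DMSO libraries (log2 fold change 0.28, adjusted p = 0.000377). HOXB8 was at 3.32, 3.296 and 3.08 CPM in GFP DMSO and 3.87, 4.13 and 4.505 CPM in SMARCB1 DMSO libraries (log2 fold change 0.38, adjusted p = 0.00851). In each of these genes the SMARCB1 libraries lay above the GFP libraries, but HOXB7 overlaps both HOXB8 and HOXB9 in the annotation, so these are not separate readings. Without SMARCB1 DMSO replicate 3 the adjusted p of HOXB8 was 0.0544. HOXB4, a gene studied in blood stem cell renewal, went the other way. It fell 1.71-fold, from 5.77, 5.96 and 6.34 CPM to 3.92, 3.43 and 3.27 CPM (log2 fold change -0.78, SE 0.09, adjusted p = 1.2e-06). HOXB2, HOXB3 and HOXB5 overlapped between the groups, with log2 fold changes of 0.02, -0.05 and -0.11 and no call.

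The same question was asked of cells that also received dBRD9-A, whose fold changes come from 6 other libraries. The fit to all 12 libraries shared its estimate of the spread, so the tests are not fully separate from those in DMSO. HOXB13, HOXD13 and HOXD8 again moved most, while the rises of HOXB6 to HOXB9 were not called. Of the 30 tested genes 16 (53.3%) were past the threshold, 8 higher and 8 lower, against 63.3% of all genes (33% higher, 30.4% lower). Their median log2 fold change was 0.02, against 0.0085 for all genes. HOXB13 was at 69.3, 67.1 and 70.1 CPM in GFP dBRD9-A and 25.5, 24.1 and 24.2 CPM in SMARCB1 dBRD9-A libraries (log2 fold change -1.49, SE 0.05, adjusted p = 2.72e-14). HOXD13 was at 0.584, 1.08 and 0.847 CPM in GFP dBRD9-A and 2.81, 2.86 and 3.74 CPM in SMARCB1 dBRD9-A libraries (log2 fold change 1.91, SE 0.19, adjusted p = 9.95e-08). HOXD8 was at 0.351, 0.237 and 0.395 CPM in GFP dBRD9-A and 0.671, 0.885 and 0.907 CPM in SMARCB1 dBRD9-A libraries (log2 fold change 1.33, SE 0.29, adjusted p = 0.000636). In each of these genes the libraries of the 2 cell states did not overlap. HOXD9 had a log2 fold change of 0.59 and was not called (adjusted p = 0.0845). TTLL6 and PRAC1 were again lower beside HOXB13, with log2 fold changes of -1.42 and -0.94 (adjusted p = 1.76e-10 and 0.00162).

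On TMM-scaled libraries HOXB4 fell by like amounts in both comparisons, and HOXB5 was called only in cells with the degrader. Scaled to the spike-ins, HOXB4 had log2 fold changes of -0.60 in DMSO and -1.20 with dBRD9-A. The medians of all genes on that scale were 0.165 and -0.319. HOXB4 was at 6.73, 6.95 and 5.76 CPM in GFP dBRD9-A and 3.55, 3.45 and 3.605 CPM in SMARCB1 dBRD9-A libraries (log2 fold change -0.88, SE 0.10, adjusted p = 3.45e-07). HOXB5, which overlaps HOXB3, was at 1.12, 1.24 and 1.58 CPM in GFP dBRD9-A and 0.696, 0.8296 and 0.698 CPM in SMARCB1 dBRD9-A libraries (log2 fold change -0.81, SE 0.20, adjusted p = 0.00232). In DMSO it had been at 0.887, 0.848 and 0.916 CPM in GFP and 0.654, 0.731 and 1.01 CPM in SMARCB1 libraries, and the difference between the comparisons was not past the threshold (adjusted p = 0.246). HOXB3 was at 4.25, 3.98 and 4.71 CPM and 3.45, 3.85 and 3.396 CPM in these groups (log2 fold change -0.27, adjusted p = 0.021). HOXA3 fell from 1.96, 1.87 and 2.34 CPM to 1.19, 1.38 and 1.35 CPM (log2 fold change -0.64, adjusted p = 0.0015). HOXA5, active in lung and vertebral development, was at 2.52, 2.37 and 2.74 CPM and 1.44, 2.27 and 2.14 CPM, and its call at adjusted p = 0.0476 was lost in 8 of 12 fits that each left out 1 library (adjusted p up to 0.228). HOXC9 and HOXC6 had the largest rises of their cluster, with log2 fold changes of 0.78 and 0.52 (adjusted p = 2.21e-08 and 1.01e-05). HOXC13 was called here, from 15.2, 13.8 and 14.99 CPM to 17.5, 16.6 and 16.9 CPM (log2 fold change 0.21, adjusted p = 0.019). Its call was lost without GFP dBRD9-A replicate 2 or SMARCB1 dBRD9-A replicate 1 (adjusted p up to 0.086), and that of HOXB3 without GFP dBRD9-A replicate 3 or SMARCB1 dBRD9-A replicate 1 or 3 (adjusted p up to 0.102).

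In both comparisons of SMARCB1 with GFP 12 genes were called, which is 63.2% of the 19 called in DMSO and 75% of the 16 called with dBRD9-A, and all 12 had the same direction in both. Over all genes 8685 were called in both with the same direction, which is 84.8% of those called in DMSO and 87.1% of those called with dBRD9-A. HOXA9, HOXC6, HOXC9, HOXC10, HOXC11, HOXD8 and HOXD13 were higher in both, and HOXA3, HOXA10, HOXA11, HOXB4 and HOXB13 were lower in both. With libraries scaled to the spike-ins, HOXA9, HOXC10 and HOXC11 turned to -0.23, -0.05 and -0.01 in the cells with dBRD9-A, and HOXC13 turned to -0.12. HOXC6 was left at 0.19 and was no longer called (adjusted p = 0.0659). The HOXA9 rise with dBRD9-A was small (0.10, adjusted p = 0.0337) and was lost without replicate 1 or 2 of either dBRD9-A group (adjusted p up to 0.131). On this scale the comparison with dBRD9-A gave 17 calls, 3 higher and 14 lower, with a median of -0.32 over all genes. HOXD13, HOXD8 and HOXC9 had log2 fold changes of 1.59, 0.996 and 0.45, and HOXB13 had -1.81.

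In GFP cells, which lack SMARCB1, dBRD9-A changed a few HOX genes by small amounts. Of the 30 tested genes 8 (26.7%) were called, 5 higher and 3 lower, against 15.9% of all genes (7.43% higher, 8.47% lower). The median log2 fold change was 0.06 for the 30 and -0.00046 for all genes. HOXB held 5 of the 8. HOXB6 was at 9.58, 10.1 and 10.3 CPM with dBRD9-A, HOXB7 at 11.5, 11.6 and 11.3 CPM, HOXB8 at 4.67, 3.77 and 4.12 CPM and HOXB9 at 25.1, 22.2 and 25.2 CPM. Each of these libraries lay above the DMSO libraries of the same gene given earlier. The log2 fold changes were 0.31 for HOXB6, 0.31 for HOXB7, 0.38 for HOXB8 and 0.30 for HOXB9 (adjusted p = 0.00672, 0.00117, 0.0367 and 0.000481). With SMARCB1 in DMSO the same 4 genes had 0.26, 0.28, 0.38 and 0.39. Both sets of values are taken against the same 3 GFP DMSO libraries, so they share those libraries' deviations.

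HOXA7 also rose with dBRD9-A in GFP cells, from 12.4, 12.1 and 11.7 CPM to 14.5, 15.4 and 13.3 CPM (log2 fold change 0.26, SE 0.07, adjusted p = 0.012). HOXB13 fell 1.19-fold between the GFP libraries whose levels are given above (log2 fold change -0.25, SE 0.05, adjusted p = 0.00078), a fall that spike-in scaling turned to 0.11. Its neighbour PRAC1 fell 2.20-fold, to 0.771, 0.632 and 0.9598 CPM (log2 fold change -1.14, SE 0.18, adjusted p = 0.00027), while TTLL6 at 7.22, 8.003 and 7.79 CPM was not called (log2 fold change -0.15, adjusted p = 0.21). HOXC8, a trunk patterning gene, was at 6.23, 7.22 and 7.01 CPM in GFP DMSO and 5.26, 5.21 and 4.91 CPM in GFP dBRD9-A libraries (log2 fold change -0.41, SE 0.09, adjusted p = 0.00328). HOXA11 was at 14.2, 16.1 and 15.1 CPM with the degrader (log2 fold change -0.16, SE 0.05, adjusted p = 0.0408), which spike-in scaling turned to 0.19. Without any 1 of the GFP DMSO replicates, or GFP dBRD9-A replicate 1 or 3, HOXA11 and HOXB8 were no longer called (adjusted p up to 0.206 and 0.187). HOXA7 was no longer called without GFP DMSO replicate 3 or GFP dBRD9-A replicate 2 (adjusted p up to 0.0723). HOXD13 was at 0.584, 1.08 and 0.847 CPM with dBRD9-A, overlapping the DMSO libraries (adjusted p = 0.151).

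The scaling turned the falls of HOXB13 and HOXA11 in this comparison and left HOXC8 lower but not called (adjusted p = 0.69). Spike-in RNAs made up 1.26% to 1.302% of the counts of GFP DMSO libraries and 0.963% to 1.06% of those of GFP dBRD9-A libraries, and the labels do not say how they were added. Scaled to them, all genes had a median of 0.36, 19 of the 30 HOX genes were called, all higher, and the median of the 30 was 0.42. On that scale HOXB13 had a log2 fold change of 0.11, HOXA11 0.19 and HOXC8 -0.05, while HOXB6, HOXB7, HOXB8 and HOXB9 had 0.68, 0.68, 0.74 and 0.66. HOXB13, HOXA11 and HOXC8 lay below the median of all genes and the 4 HOXB genes above it. Since the scaling moves all genes of a library together, this repeats the TMM result and is no separate support for it.

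**Figure D4:**
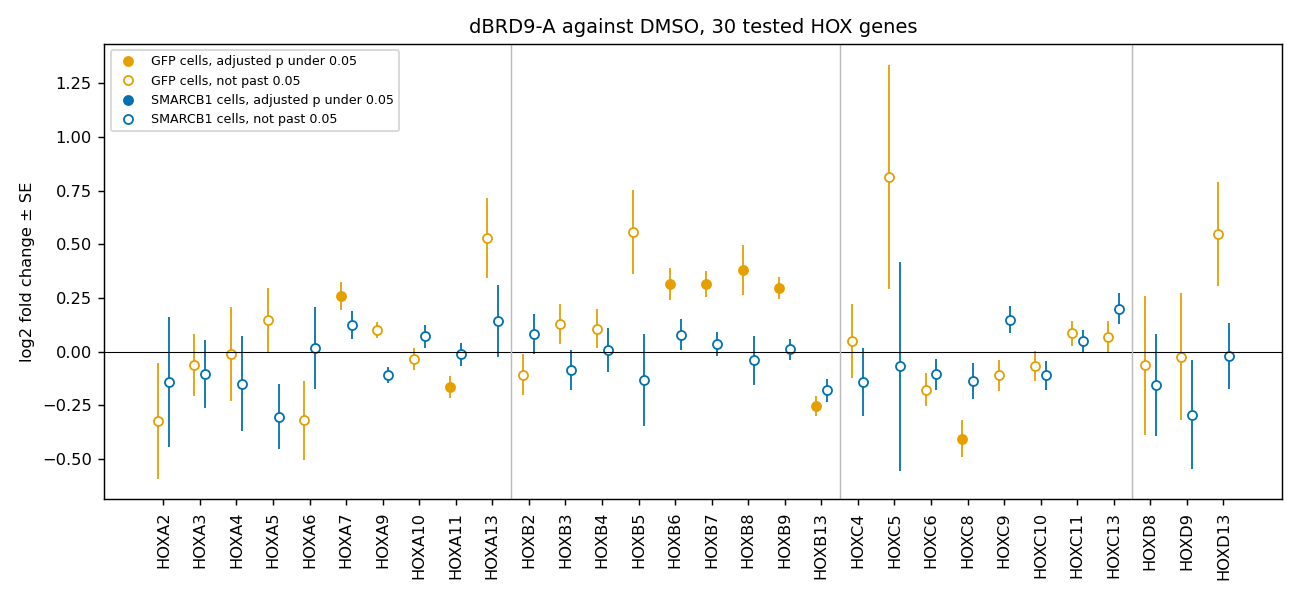
Log2 fold change of dBRD9-A against DMSO for the 30 tested HOX genes, in GFP and in SMARCB1 cells, on TMM-scaled libraries. Points are fitted values from 3 against 3 libraries, bars are 1 SE, and filled points are past an adjusted p of 0.05. In GFP cells 8 genes are filled, from -0.41 for HOXC8 to 0.38 for HOXB8, and in SMARCB1 cells none is filled. On spike-in scaled libraries the GFP values of HOXB13 and HOXA11 turn positive.

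In SMARCB1 cells, no HOX gene passed the test with dBRD9-A on TMM-scaled libraries. None of the 30 was called by edgeR, 4 had an unadjusted p under 0.05, and 1, HOXB13, was called lower by DESeq2. The background was low as well, at 1.93% of all genes (0.679% higher, 1.25% lower). Log2 fold changes of the 30 lay between -0.30 for HOXA5 and 0.20 for HOXC13, with a median of -0.05. The 4 genes with an unadjusted p under 0.05 were HOXA9, HOXB13, HOXC9 and HOXC13. HOXB13 was at 29.1, 26.03 and 28.4 CPM in SMARCB1 DMSO and 25.5, 24.1 and 24.2 CPM in SMARCB1 dBRD9-A libraries (log2 fold change -0.18, SE 0.05, adjusted p = 0.106). All 3 treated libraries were below the untreated ones. HOXA9 was at 43.7, 41.4 and 41.4 CPM in SMARCB1 DMSO and 39.8, 39.8 and 37.6 CPM in SMARCB1 dBRD9-A libraries (log2 fold change -0.11, SE 0.04, adjusted p = 0.195). Its libraries did not overlap either. Scaled to the spike-ins, HOXB13 (-0.32, adjusted p = 0.0141) and HOXA9 (-0.25, adjusted p = 0.0398) were called lower, beside a median of -0.14 over all genes.

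Whether the response to dBRD9-A differed between the cell states was tested as an interaction. Of the 30 genes 2 (6.67%) were past the threshold, both with a lower response in SMARCB1 than in GFP cells, against 3.8% of all genes (2.15% higher, 1.65% lower). HOXB9 went to 25.1, 22.2 and 25.2 CPM with dBRD9-A in GFP cells and stood at 25.6, 25.9 and 26.8 CPM in SMARCB1 dBRD9-A libraries, against 26.1, 25.98 and 25.6 CPM in SMARCB1 DMSO libraries. Its response was 0.30 in GFP cells and 0.01 in SMARCB1 cells on the log2 scale, a difference of -0.28 (SE 0.07, adjusted p = 0.0271). HOXA9 was at 35.5, 36.7 and 37.3 CPM in GFP dBRD9-A libraries, and its responses were 0.10 and -0.11, a difference of -0.21 (SE 0.05, adjusted p = 0.0379). The call of HOXB9 was lost in 7 of 12 fits that left out 1 library each (adjusted p up to 0.0907), and that of HOXA9 in 8 (adjusted p up to 0.111). HOXB7 had a difference of -0.28 and was not called (adjusted p = 0.0742). HOXB13 had a difference of 0.07 (SE 0.07, adjusted p = 0.676).

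Of the tested genes 5 were called in no comparison, and all 5 had low to moderate counts. HOXA2 averaged 0.398 ± 0.0246 CPM in GFP DMSO and 0.257 ± 0.0465 CPM in SMARCB1 DMSO cells (SD, n = 3), without overlap but at adjusted p = 0.0535. HOXA4 averaged 0.786 ± 0.151 and 0.784 ± 0.0693 CPM in the same groups (SD, n = 3). HOXA6 averaged 1.45 ± 0.0918 and 1.13 ± 0.208 CPM (SD, n = 3). HOXC5, the lowest but one of the tested genes by counts, averaged 0.231 ± 0.0784 and 0.3904 ± 0.155 CPM (SD, n = 3) with libraries that spread widely. HOXB2, a hindbrain gene, was the most abundant of the 5 and averaged 4.82 ± 0.269 and 4.85 ± 0.4004 CPM (SD, n = 3). Its log2 fold change of 0.02 in DMSO had an SE of 0.09.

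The partners with which HOX proteins bind DNA changed with SMARCB1. All 7 tested PBX, MEIS and PKNOX genes of 9 were called in DMSO, 5 higher and 2 lower, against 65% of all genes (33.5% higher, 31.6% lower). The 5 include MEIS1, whose call is no support, since it passed the filter on low counts only through SMARCB1 libraries. MEIS2, the most abundant, went from 123, 119 and 122 CPM to 148, 148 and 157 CPM (log2 fold change 0.32, adjusted p = 8.44e-08). PBX3 rose from 24.2, 25.8 and 22.2 CPM to 38.3, 39.5 and 41.4 CPM (log2 fold change 0.73, SE 0.05, adjusted p = 7.95e-10), and PKNOX1 from 23.5, 22.4 and 21.3 CPM to 35.6, 34.9 and 34.9 CPM (log2 fold change 0.65, SE 0.04, adjusted p = 4.5e-10). MEIS3 fell from 29.8, 27.1 and 29.1 CPM to 18.7, 18.9 and 18.5 CPM (log2 fold change -0.62, SE 0.05, adjusted p = 3.41e-09). MEIS1, a partner of HOXA9 in leukaemia, rose 4.80-fold from a low level, 0.124, 0.194 and 0.207 CPM to 0.8897, 0.781 and 0.8598 CPM, and was picked out after its values were seen. It had 3 to 12 counts in the 6 GFP libraries and passed the filter on low counts only through the SMARCB1 libraries, so its test is not given. In GFP cells dBRD9-A moved 3 of the 7 (15.9% of all genes), MEIS3 and PBX3 higher (log2 fold changes 0.36 and 0.20) and PBX2 lower (-0.14). The fall of PBX2 turned to 0.22 with spike-in scaling, and PBX2 and PBX3 were no longer called without GFP DMSO replicate 3 or GFP dBRD9-A replicate 2 (adjusted p up to 0.0552 and 0.0861). In SMARCB1 cells none of the 7 was called with dBRD9-A by edgeR on TMM-scaled libraries, 1 with an unadjusted p under 0.05 and none by DESeq2. The response of MEIS3 differed between the cell states by -0.25 (adjusted p = 0.0462), a call lost in 10 of 12 fits that left out 1 library each.

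Other transcripts and genes around the clusters were counted in the same way, beside a background of 65% of all genes called in DMSO and 15.9% with the degrader in GFP cells. Of 14 tested non-coding RNAs of the clusters 6 (42.9%) were called in DMSO, 4 higher and 2 lower. The 4 include HAGLR and HOXD-AS2, whose calls are no support, since they passed the filter on low counts only through SMARCB1 libraries. HOXB-AS3, which overlaps HOXB3 to HOXB6, rose from 4.54, 4.12 and 4.41 CPM to 5.97, 5.62 and 5.59 CPM (log2 fold change 0.39, SE 0.08, adjusted p = 0.000576). HOTAIR, the HOXC transcript antisense to HOXC11, was not called at 6.603, 6.59 and 7.15 CPM in GFP DMSO and 6.96, 5.997 and 6.81 CPM in SMARCB1 DMSO libraries (adjusted p = 0.714). In GFP cells 1 of the 14 was called with dBRD9-A, HOXC-AS3, which overlaps HOXC10. It went from 2.06, 2.38 and 2.56 CPM to 1.29, 1.26 and 1.67 CPM (log2 fold change -0.74, SE 0.16, adjusted p = 0.00327), and spike-in scaling left it at -0.37 and not called (adjusted p = 0.0564). Of 16 tested flanking genes 14 were called with SMARCB1 in DMSO (6 higher, 8 lower) and 2 (12.5%, near the background) with the degrader in GFP cells (1 higher, 1 lower). Apart from PRAC1 and TTLL6, the flanking gene with the largest change in DMSO was SKAP1 beyond HOXB1, with a log2 fold change of 1.03 (adjusted p = 2.67e-05). Of 10 tested genes known to act on HOX clusters 9 were called with SMARCB1 in DMSO (7 higher, 2 lower), of which CYP26A1 and CYP26B1 passed the filter on low counts only through SMARCB1 libraries. RARG, a retinoic acid receptor, fell from 43.5, 47.9 and 42.9 CPM to 25.4, 22.2 and 26.5 CPM (log2 fold change -0.85, SE 0.06, adjusted p = 2.97e-10). KMT2A, the MLL1 histone methyltransferase that maintains HOX expression, rose by 0.28 on the log2 scale (adjusted p = 0.00288), with libraries that overlapped between the groups. DOT1L, a histone methyltransferase of transcribed genes, fell by a log2 fold change of -0.32 (adjusted p = 0.00078), which spike-in scaling left at -0.15 (adjusted p = 0.125). In GFP cells with the degrader none of these 10 was called by edgeR on TMM-scaled libraries, 3 had an unadjusted p under 0.05 and 1 was called by DESeq2.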

How the data were processed

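RNA was prepared with an RNeasy kit and sequenced from stranded mRNA libraries, per the labels' protocols. The authors deposited expected counts per gene, and the submitters' processing notes name STAR, RSEM 1.3.1, DESeq2 and the build GRCh37 (hg19). Columns that repeat a library (6) were identical. Expected counts were rounded. Of 57820 identifiers, 51996 matched a symbol; 40 spike-in identifiers stayed out of library sizes. Only promoter windows carry coordinates, from RefSeq on GRCh38.p14, and gene overlaps and exon lengths come from GENCODE 29.

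Genes passing filterByExpr (minimum count 10) numbered 15750. edgeR 4.0.16 in R 4.3.3 was fitted to all 12 libraries with 1 coefficient per group, TMM scaling and a quasi-likelihood test, and p-values were adjusted over all genes by the Benjamini-Hochberg method (threshold 0.05). The fit was tested on data simulated from its own estimates of spread, with few genes changed. That setting could not test the scaling where most genes change. Alternatives were DESeq2 1.42.0, other scalings and filters, a replicate block and leaving out each library. Depth was 34.97 to 58.54 megacounts (1e6 counts) assigned to genes; floors of 3 counts cover counting error only. Library values are listed in order of replicate number.

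The HOX genes were taken by symbol, but the choice of this family and the lists of partners, non-coding RNAs, neighbours and regulators were made with earlier results of these data known. Values per library were given for called genes, largest counts first (up to 24), and of the other lists for at most 3 genes per comparison with the largest called change and a mean of at least 50 counts. MEIS2, HOTAIR, CALCOCO2, CYP26A1, CYP26B1 and the cell markers were named outside that rule, and others outside it are marked in the text.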

Additional observations from a re-analysis of the deposited data

Results flagged for a closer look

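The response to dBRD9-A differed between GFP and SMARCB1 cells for 3 genes, by edgeR's test of the interaction. HOXB9 differed by -0.285 on the log2 scale (adjusted p = 0.0271), with a response of 0.30 in GFP cells and 0.01 in SMARCB1 cells. HOXA9 differed by -0.209 (adjusted p = 0.0379), with 0.10 in GFP cells and -0.11 in SMARCB1 cells. MEIS3, the partner gene, differed by -0.255 (adjusted p = 0.0462), with 0.36 in GFP cells. For each of the 3 genes, every GFP dBRD9-A library lay above each GFP DMSO library. These calls were lost in 7 (HOXB9), 8 (HOXA9) and 10 (MEIS3) of 12 fits that left out 1 library each. HOXB9 kept its call without GFP DMSO replicate 2, SMARCB1 DMSO replicate 3, GFP dBRD9-A replicate 2, or SMARCB1 dBRD9-A replicate 2 or 3. HOXA9 kept it without SMARCB1 DMSO replicate 3, GFP dBRD9-A replicate 1, or SMARCB1 dBRD9-A replicate 1 or 2. MEIS3 kept it without GFP DMSO replicate 1 or SMARCB1 dBRD9-A replicate 2.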

How the results depend on the processing

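The 5 largest SMARCB1 changes in DMSO among called HOX genes (HOXD13, HOXB13, HOXD8, HOXD9 and HOXB4) kept direction and call under all alternatives run other than the fold limit, which HOXD9 and HOXB4 did not reach. Scaling to the spike-ins was the choice that turned directions, and the cause was not tested. It moved the medians of all genes to 0.17 (SMARCB1 in DMSO), 0.36 (dBRD9-A in GFP cells), -0.14 (dBRD9-A in SMARCB1 cells), -0.32 (SMARCB1 with dBRD9-A) and -0.49 (interaction). For dBRD9-A in GFP cells it gave 19 HOX genes, 5 partners, 6 non-coding RNAs, 14 flanking genes and 7 regulators called, and 11310 of all genes, and log2 values of 0.1932 for HOXA11, 0.1091 for HOXB13, 0.2458 for HOXC9, 0.2934 for HOXC10, 0.2187 for PBX2 and 0.3235 for HOXA10. For dBRD9-A in SMARCB1 cells it gave 2 HOX genes (HOXB13 and HOXA9, both lower), 1 partner and 1 regulator, and 873 of all genes. For SMARCB1 with dBRD9-A the turned values, of genes called under either scaling, were -0.2288 for HOXA9, -0.3048 for HOXB6, -0.0082 for KMT2A, -0.3170 for HOXA7, -0.1170 for HOXC13, -0.0097 for HOXC11, -0.2208 for HOXB9, -0.0530 for HOXC10 and -0.3253 for HOXB7. For the interaction it gave 22 HOX genes, 5 partners, 5 non-coding RNAs, 14 flanking genes and 8 regulators, and 11270 of all genes, with -0.3453 for HOXA11, -0.3627 for HOXC13, -0.4284 for HOXB13, -0.4332 for HOXC6 and -0.3938 for HOXA10.

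A limit of 1 on the absolute log2 fold change left 3 HOX genes, 1 partner, 3 non-coding RNAs, 3 flanking genes and 2 regulators for SMARCB1 in DMSO, and 3, 1, 2, 2 and 2 with dBRD9-A. The counts for SMARCB1 in DMSO and with dBRD9-A both include MEIS1, HAGLR, HOXD-AS2, CYP26A1 and CYP26B1. These genes passed the filter on low counts only through SMARCB1 libraries, so their calls are no support. With dBRD9-A they are the whole of the partner, non-coding RNA and regulator counts. For dBRD9-A against DMSO the limit had fewer genes to leave. The limit left 0 HOX genes, 0 partners, 0 non-coding RNAs and 1 flanking gene for dBRD9-A in GFP cells, 0 flanking genes in SMARCB1 cells, and 0 HOX genes and 0 partners for the interaction. All-gene counts under this limit were 2305, 143, 23, 2300 and 42 (SMARCB1 in DMSO, dBRD9-A in GFP cells, dBRD9-A in SMARCB1 cells, SMARCB1 with dBRD9-A, interaction). DESeq2 gave 1 flanking gene and 1 regulator for dBRD9-A in GFP cells and 1 HOX gene in SMARCB1 cells. DESeq2's size factors in edgeR gave 1 regulator for dBRD9-A in GFP cells. Without a filter on low counts there were 2 regulators in GFP cells, 1 HOX gene and 1 regulator in SMARCB1 cells (652 of all genes), and 1 HOX gene for the interaction. Fitting only the compared groups gave 3 regulators for dBRD9-A in GFP cells and 0 flanking genes in SMARCB1 cells (156 of all genes).

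Same-numbered libraries of different groups had correlations of -0.0559 to 0.0611 in their deviations from group means, and differently numbered ones -0.0535 to 0.074. This showed no sign of pairing by replicate number, but correlations over all tested genes cannot exclude it. With the number as a block, 19, 7, 0, 15 and 1 HOX genes were called in the 5 comparisons, in the order of the all-gene counts above, and the block gave 1 flanking gene for dBRD9-A in GFP cells and 0 partners for the interaction. Leaving out 1 library at a time gave, for dBRD9-A in GFP cells, 5 to 8 HOX genes, 1 to 4 partners, 1 to 2 flanking genes and 0 to 2 regulators. In SMARCB1 cells it gave 0 to 1 HOX genes and 0 to 1 flanking genes, and for the interaction 0 to 3 HOX genes, 0 to 1 partners and 0 to 1 flanking genes. A floor of 10 counts made 7 HOX genes silent, and a filter minimum of 5 left 31 tested. Genes under the floor cannot be told from unexpressed ones at this depth.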
